A study of Homo sapiens with 6 samples.

Results

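The BCL2 family comprises the proteins that hold or open the outer mitochondrial membrane in apoptosis, and the expression of 10 of its genes was examined in MDA-MB-453 cells after knockdown of tRF-1-Ser by a hairpin. The genes were taken by symbol from the count table, which held 36517 genes, and all 10 were found. They were 3 survival members (BCL2, BCL2L1 and MCL1), and 7 death members, of which BAX and BAK1 form the pore and BCL2L11, BBC3, PMAIP1, BID and BIK are BH3-only proteins. MDA-MB-453 is a human breast cancer cell line of luminal type. One group had received a lentivirus with a negative control hairpin (control, n = 3) and the other a lentivirus with a hairpin against tRF-1-Ser, a small RNA from the 3′ trailer of a serine pre-tRNA (shtRF, n = 3), and total RNA was taken at day 3. Both groups therefore carried a lentiviral hairpin, and no library of untransduced cells was analysed here. The target of the hairpin is too short for these mRNA libraries, so in these counts the groups rest on their labels. The study reports that it checked the knockdown by qPCR in its cell lines. The study calls the cells stably transduced and its replicates biological, without saying whether they were separate infections or cultures of a single transduced population, and p-values measure only the spread between these libraries.

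Survival members bind and restrain both the pore formers and the BH3-only proteins. After damage, loss of growth factor or stress, BH3-only proteins accumulate or are cut, occupy the groove of the survival members and release or activate BAX and BAK1, which assemble in the membrane and let cytochrome c out to start the caspases. Breast cancer cells commonly lean on MCL1 and on BCL-xL, the main product of BCL2L1, and MCL1 is known for its short-lived messenger and protein. Much of the regulation of these proteins is at the level of splicing, stability and cleavage, which a count per gene does not measure. The libraries were of bulk RNA, in which fewer cells expressing a gene and less RNA of it per cell cannot be told apart.

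Of the 10 genes, BCL2L1 rose and MCL1 fell in shtRF, and the other 8 did not pass the test. The test was the quasi-likelihood test of edgeR across all 19628 genes with enough counts, and a gene was called at a Benjamini-Hochberg adjusted p under 0.05. By this rule 1 of 10 was higher against 20.6% of all genes tested, 1 of 10 was lower against 18.9%, and 2 of 10 changed in either direction against 39.5%. The median log2 fold change was -0.06 over the 10 members and -0.0025 over all genes tested. In counts scaled to a library of 1000000 (CPM, with TMM factors) the libraries of the groups did not overlap for 3 of 10 members, BCL2L1, MCL1 and BIK, against 48.7% of all genes tested. By direction, the shtRF libraries lay above control for BCL2L1 and BIK (24.9% of all genes tested) and below it for MCL1 (23.8%). Both called genes were survival members, and no difference was called among the death members.

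**Figure D1:**
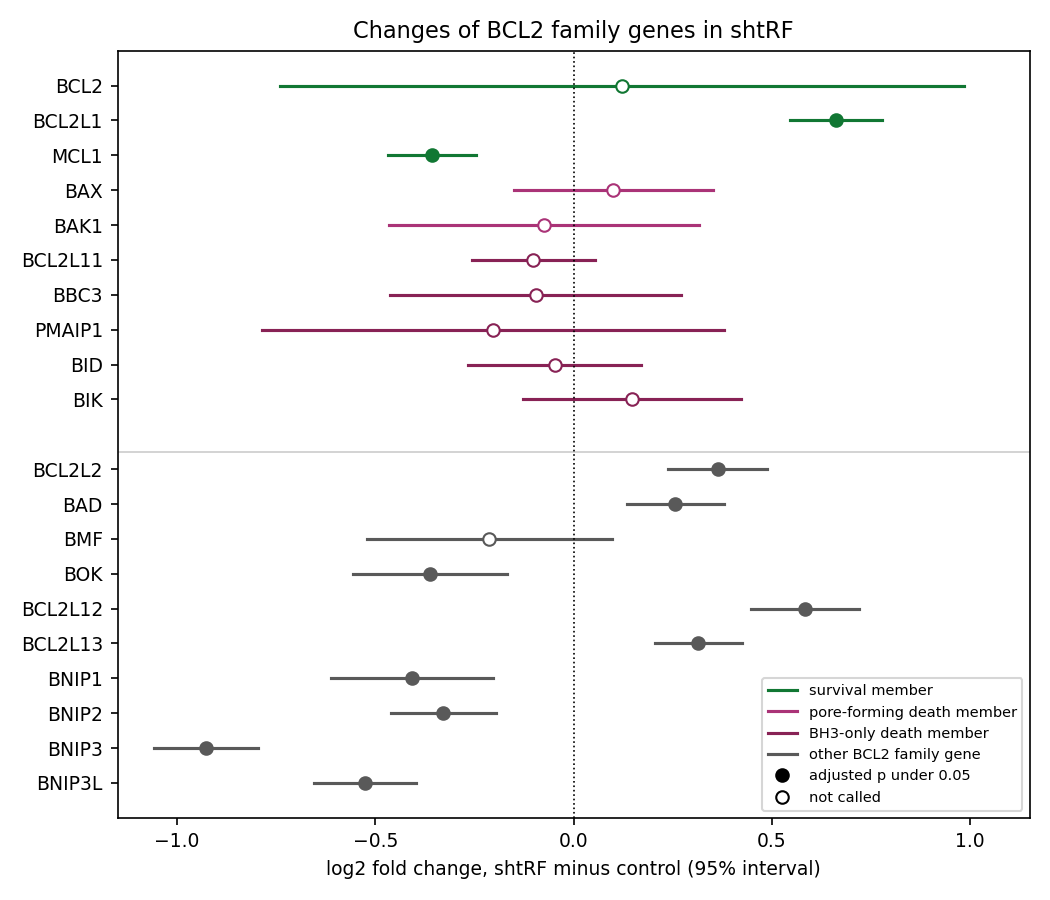
Log2 fold changes (shtRF minus control, x axis) of the 10 members and of 10 other tested BCL2 family genes (y axis), with 95% intervals from edgeR, where filled points passed an adjusted p of 0.05. Among the members BCL2L1 lay at 0.66 and MCL1 at -0.36, and every death member's interval crossed 0.

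To show the sequence ahead of their RefSeq starts, promoter windows (build GRCh38.p14) were searched on both strands for sites of factors known to act on the family. The 250 bases before each start were searched for the E-box CACGTG of MYC and MAX, the AP-1 site TGANTCA, the STAT site TTCNNNGAA, the FOXO site GTAAACA and the E2F site TTTCCCGC. Of the members, 8 matched, with 13 windows among 35116 in all. The E-box stood in 6.34% of all windows, the AP-1 site in 6.57%, the STAT site in 6.57%, the FOXO site in 2.98% and the E2F site in 1.39%. BAX held 4 E-boxes, a number reached or passed by only 5 of the 35116 windows. BBC3 held 1 E-box and 1 AP-1 site, BCL2L11 held 1 FOXO site and BID had the same E-box in 2 overlapping windows, while those of BCL2L1, BCL2, BAK1 and PMAIP1 held none of the 5 motifs. RefSeq starts can lie inside the gene as the count table draws it, and the windows with the FOXO site of BCL2L11 and the E-box of BID do, as does that of BCL2. Windows of BAX, BBC3 and BCL2L1 are shown, cut at the first annotated base of the gene in the count table: that of BAX for its E-boxes (2 of the 4 lie in the stretch shown), that of BBC3 for its pair of motifs, and that of BCL2L1 as the member that rose. Capitals mark the motif matches, and each is written 5′ to 3′ on the strand of its gene. They are chr19:48954625-48954814 (plus strand), chr19:47232767-47232917 (minus strand) and chr20:31723990-31724213 (minus strand).
BAX: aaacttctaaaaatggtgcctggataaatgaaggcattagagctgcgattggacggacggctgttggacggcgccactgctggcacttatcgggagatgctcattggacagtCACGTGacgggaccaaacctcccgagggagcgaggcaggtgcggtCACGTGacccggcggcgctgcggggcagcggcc
BBC3: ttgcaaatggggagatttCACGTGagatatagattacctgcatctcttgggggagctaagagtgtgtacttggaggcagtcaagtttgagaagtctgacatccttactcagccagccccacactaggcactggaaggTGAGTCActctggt
BCL2L1: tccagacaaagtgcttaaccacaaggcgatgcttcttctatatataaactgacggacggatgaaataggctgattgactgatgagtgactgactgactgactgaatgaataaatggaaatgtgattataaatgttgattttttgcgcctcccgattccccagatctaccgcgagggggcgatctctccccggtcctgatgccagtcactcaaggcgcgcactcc

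A match says only that these letters are present. The levels of some of the factors differed between the groups. MYC mRNA fell by 1.48 on the log2 scale (21.0 ± 0.67 CPM in control, 7.55 ± 0.33 in shtRF, SD, n = 3, edgeR adjusted p = 2.51e-12). JUN, a partner in AP-1, rose by 0.54 (46.0 ± 1.7 to 66.8 ± 2.4 CPM, edgeR adjusted p = 8.47e-08, named here for the AP-1 motif). Neither BAX nor BBC3, whose windows hold these motifs, passed the test. The FOXO genes, named here for the FOXO motif, went apart: FOXO3 fell by 0.28 (edgeR adjusted p = 1.64e-03) and FOXO4 rose by 0.46 (1.43e-06). FOXO1 was not called (0.383), nor was BCL2L11, whose window holds the FOXO site.

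BCL2L1 encodes BCL-xL, and by another splice site the shorter BCL-xS that promotes death. It lies on chromosome 20 from 31664452 to 31723989 on the minus strand (GRCh38, as in the count table). It had 59.0, 63.4 and 57.2 CPM in control replicates 1 to 3 and 96.7, 91.2 and 96.2 CPM in shtRF. All 3 shtRF libraries lay far above the 3 control libraries, whose spread was small. The level rose 1.58-fold (95% interval 1.46 to 1.71), a log2 fold change of 0.66 ± 0.06 (SE), with an edgeR adjusted p of 3.32e-09. Counts per gene do not separate BCL-xL from BCL-xS, so which of the splice forms carried the difference was not measured.

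The exons of BCL2L1 are shared in part with ABALON, a non-coding gene on the opposite strand at chromosome 20 from 31721507 to 31723409. Of the 3314 exonic bases of BCL2L1, 1424 (43.0%) are also exonic in ABALON. The count of ABALON was 3186, 4026 and 3770 in control and 5791, 5423 and 5253 in shtRF, which is 82.6% to 88.1% of the count of BCL2L1 in the same library. The library kit marks strand, but the strand setting of the counting is not given. Elsewhere in the table, 79 genes lying within exons of a host on the opposite strand had a median read density 0.342 of the host's (quartiles 0.0598 and 0.778), and 46 nested on the same strand had 0.202 (0.0526 and 0.724). The quartiles of the kinds overlapped widely, so this comparison does not settle the strand setting. The subtractions below take reads over the shared exons as counted for both genes, which was not tested. If strand was not used, transcripts of BCL2L1 and ABALON cannot be told apart over the shared exons. ABALON as listed rose by 0.72 ± 0.06 on the log2 scale (edgeR adjusted p = 1.70e-09).

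The weight of the shared exons was examined by 2 subtractions, both chosen after seeing the data. With the whole count of ABALON subtracted, the remaining reads of BCL2L1 were 652, 764 and 794 in control and 998, 840 and 711 in shtRF. On the CPM scale they were 10.0, 10.1 and 9.95 in control and 14.2, 12.2 and 11.5 in shtRF. The groups did not overlap, and the log2 difference shrank to 0.33 ± 0.09 (SE, 95% interval 0.14 to 0.52, edgeR adjusted p = 6.40e-03). This removes too much, both BCL2L1's own reads in the shared exons and the reads of the 479 bases of ABALON that lie outside the exons of BCL2L1.

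With the count of ABALON subtracted in proportion to the 74.8% of its length that is shared, which takes its reads as evenly spread, BCL2L1 had 22.4, 23.5 and 21.8 CPM in control and 35.0, 32.1 and 32.8 CPM in shtRF. All shtRF libraries again lay above control. The log2 difference was 0.56 ± 0.06 (SE, 95% interval 0.43 to 0.69, edgeR adjusted p = 3.59e-07). BCL2L1 was called higher under either subtraction, at a size that depended on it.

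**Figure D2:**
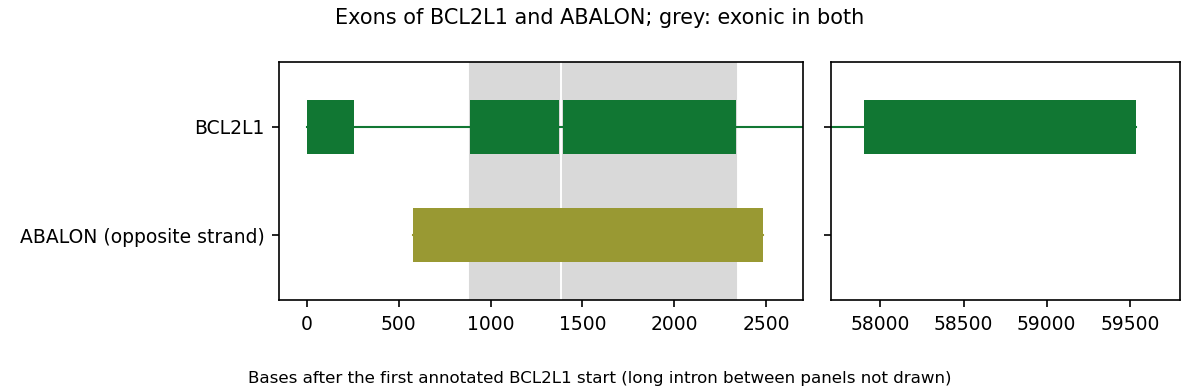
Exons of BCL2L1 (green) and of ABALON on the opposite strand (olive), in bases after the first annotated start of BCL2L1 on the x axis, with the long intron between the panels left out. The grey band marks the 1424 bases that are exonic in both genes, 43.0% of BCL2L1.

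MCL1 encodes a survival protein that holds BAK1 and BCL2L11 in check. It lies on chromosome 1 from 150574551 to 150579738 on the minus strand, and shares only 2 of its 4371 exonic bases with another gene of the table, ADAMTSL4-AS1. Its level was 156, 170 and 168 CPM in control and 126, 130 and 130 CPM in shtRF. The 3 shtRF libraries were almost equal and all lay below the lowest control library. The level fell to 0.781 of control (95% interval 0.723 to 0.843), a log2 difference of -0.36 ± 0.05 (SE, 95% interval -0.47 to -0.25, edgeR adjusted p = 1.21e-05).

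BCL2, the founding survival gene (chromosome 18, 63123346 to 63320128, minus strand), was close to the limit of detection. Only 32, 36 and 18 reads were counted in control and 32, 20 and 34 in shtRF, out of at least 63541413 counts per library. The groups overlapped in part, with shtRF replicate 3 above every control library, at 0.398 ± 0.15 and 0.432 ± 0.13 CPM (SD, n = 3). The log2 fold change of 0.12 had a 95% interval of -0.74 to 0.98 (edgeR adjusted p = 0.852). An interval this wide does not tell a rise of BCL2 from a fall or from no change.

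Of the pore formers, BAX (chromosome 19, 48954815 to 48961798, plus strand) had 6.43, 5.87 and 8.18 CPM in control and 7.49, 7.94 and 6.53 CPM in shtRF. The groups overlapped, and the highest value of all was in control replicate 3. The log2 fold change was 0.10 ± 0.12 (SE, 95% interval -0.15 to 0.35, edgeR adjusted p = 0.555). BAK1 (chromosome 6, 33572547 to 33580293, minus strand) had 2.51, 2.00 and 3.60 CPM in control and 2.85, 2.58 and 2.27 CPM in shtRF. Here too the shtRF libraries lay within the range of control, which was set by its replicate 3. The log2 fold change was -0.07 ± 0.19 (SE, 95% interval -0.46 to 0.32, edgeR adjusted p = 0.793).

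Among the BH3-only genes, BCL2L11 encodes BIM, an activator of BAX and BAK1 that binds all survival members. Located on chromosome 2 from 111119378 to 111168447 (plus strand), it had 17.1, 17.3 and 16.3 CPM in control and 15.4, 15.2 and 16.6 CPM in shtRF. Only shtRF replicate 3 reached into the range of control. The log2 fold change was -0.10 ± 0.07 (SE, 95% interval -0.26 to 0.05, edgeR adjusted p = 0.306), one of the narrower intervals of the family.

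BID carries the signal of the death receptors to mitochondria after its cleavage by caspase-8. From its locus on chromosome 22 (17734138 to 17774770, minus strand) came 7.13, 7.61 and 9.23 CPM in control and 7.79, 7.73 and 7.71 CPM in shtRF. The shtRF libraries were almost equal and lay inside the control range. The log2 fold change was -0.05 ± 0.10 (SE, 95% interval -0.27 to 0.17, edgeR adjusted p = 0.759).

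BBC3 and PMAIP1 encode PUMA and NOXA, which p53 induces after DNA damage, and NOXA is known for binding MCL1. BBC3 (chromosome 19, 47220822 to 47232766, minus strand) had 2.77, 3.24 and 2.09 CPM in control and 2.65, 2.13 and 2.81 CPM in shtRF. PMAIP1 (chromosome 18, 59899948 to 59904306, plus strand) had 0.646, 0.847 and 0.977 CPM in control and 0.712, 0.670 and 0.774 CPM in shtRF, from 42 to 78 reads per library. For both genes every shtRF library lay inside the range of control. The log2 fold changes were -0.10 for BBC3 (95% interval -0.46 to 0.27, edgeR adjusted p = 0.712) and -0.20 for PMAIP1 (95% interval -0.78 to 0.38, edgeR adjusted p = 0.611).

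BIK encodes a BH3-only protein of the endoplasmic reticulum. Its gene on chromosome 22 (43110748 to 43129712, plus strand) had 3.23, 3.34 and 3.12 CPM in control and 3.60, 3.68 and 3.43 CPM in shtRF. All 3 shtRF libraries were above all 3 control libraries, as for 24.9% of all genes tested. The log2 fold change of 0.15 ± 0.13 (SE, 95% interval -0.13 to 0.42) did not pass the test (edgeR adjusted p = 0.414).

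Levels of different genes were compared per kilobase of exon, as reads per kilobase scaled to the same library total (RPKM, without TMM factors). In control the order was MCL1 (38.3 ± 1.88 RPKM, SD, n = 3), BCL2L1 (18.4 ± 1.11), BIK (3.45 ± 0.139), BAX (2.68 ± 0.458), BCL2L11 (2.58 ± 0.0934), BID (1.83 ± 0.243), BAK1 (1.24 ± 0.367), BBC3 (0.865 ± 0.191), PMAIP1 (0.375 ± 0.0751) and BCL2 (0.0345 ± 0.0131). The ranges of BAX and BCL2L11, of BID and BAK1 and of BAK1 and BBC3 overlapped, and those of the other neighbours were separate. Per kilobase, BCL2 was 1112-fold below MCL1 in control. In shtRF the mean levels kept this order, but MCL1 (28.5 to 29.1 RPKM) and BCL2L1 (26.4 to 29.4 RPKM) now overlapped, while the other neighbours were separate. The level of MCL1 was 2.09 ± 0.126 times that of BCL2L1 in control and 1.03 ± 0.0435 times in shtRF, with no overlap between the groups. This near parity in shtRF held over all exons but not after the subtractions of ABALON, which apply only if reads over the shared exons were counted for both genes. With BCL2L1 taken from the remaining reads over its 1890 unshared bases, the ratio was 7.10 ± 0.333 in control and 4.44 ± 0.536 in shtRF after subtraction of the whole ABALON count, and 3.16 ± 0.163 and 1.67 ± 0.0965 after subtraction by shared length. The ratio was lower in every shtRF library under each of the 3 measures, but under either subtraction MCL1 stayed above BCL2L1 in every shtRF library.

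**Figure D3:**
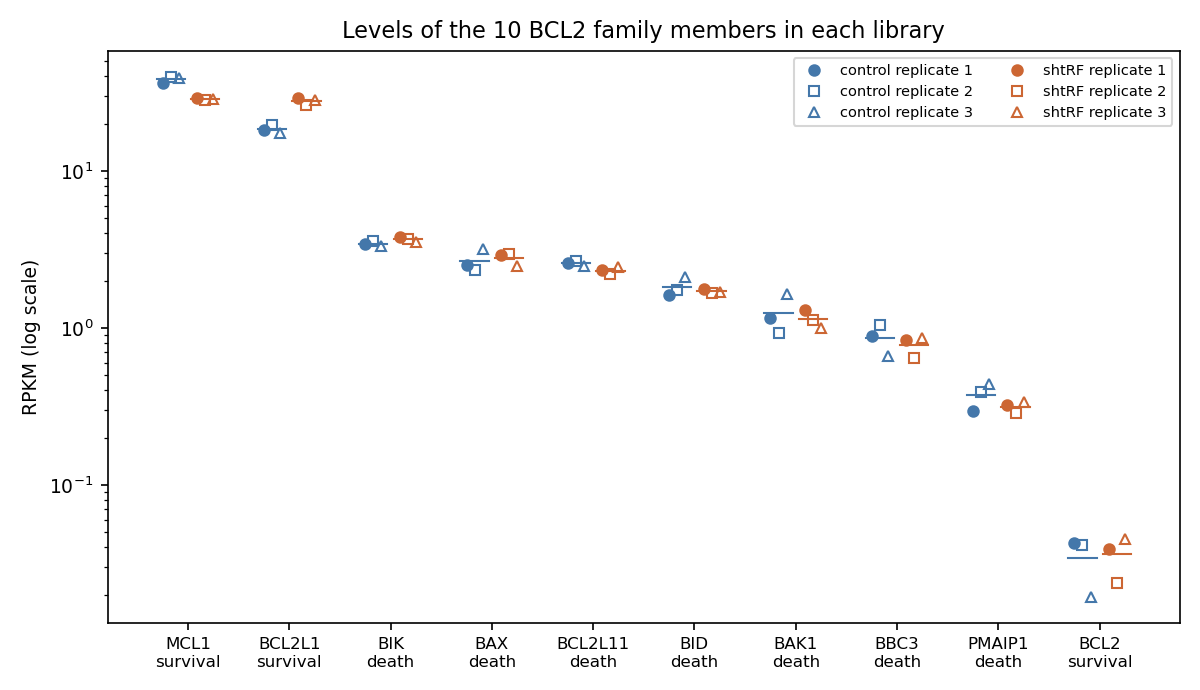
Level of each member in RPKM (y axis, log scale) in every library, with genes on the x axis in the order of their control level; points are libraries and lines are group means. MCL1 and BCL2L1 stand apart at 18.4 RPKM or more on average, their groups move toward each other in shtRF, and BCL2 lies lowest.

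As a summary of survival against death members, RPKM values were summed within each library, as a description with no test. The survival sum was 54.4, 59.5 and 56.4 RPKM in control and 58.6, 55.0 and 57.3 RPKM in shtRF. The death sum was 12.5, 12.7 and 13.8 RPKM in control and 13.3, 12.6 and 12.3 RPKM in shtRF. Neither sum separated the groups. The ratio of survival to death was 4.37 ± 0.308 in control and 4.48 ± 0.157 in shtRF (SD, n = 3), again overlapping. BAD, a BH3-only gene outside the members, had 24.2 ± 1.16 RPKM in control and 27.9 ± 0.809 in shtRF, above the whole death sum. The ratio therefore describes only the chosen members and not the whole family.

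What differed was the make-up of the survival sum. MCL1 provided 67.5% ± 1.31 of it in control and 50.7% ± 1.06 in shtRF, and BCL2L1 32.4% ± 1.28 and 49.2% ± 1.04, with no overlap for either. BCL2 gave at most 0.0793% in any library. The ratio of BAX to BCL2, a pair often quoted in studies of apoptosis, was 93.4 ± 62.0 in control and 84.3 ± 35.8 in shtRF and rests on the few reads of BCL2. The ratio of BAX to BCL2L1 went from 0.147 ± 0.0331 to 0.0992 ± 0.0122 without overlap.

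The sums and their make-up depended on how the exons shared with ABALON were treated, and the subtractions apply only if reads there were counted for both genes. With the whole count of ABALON subtracted and the rest taken over the 1890 unshared bases, BCL2L1 was 5.40 ± 0.0815 RPKM in control and 6.57 ± 0.883 in shtRF. It then provided 12.4% ± 0.517 of the survival sum in control and 18.5% ± 1.90 in shtRF, and MCL1 87.6% ± 0.539 and 81.4% ± 1.89, still without overlap. The survival sum went from 43.8 ± 1.91 to 35.5 ± 1.12 RPKM and the ratio of survival to death from 3.37 ± 0.192 to 2.79 ± 0.0427, with the groups no longer overlapping. The ratio of BAX to BCL2L1 was 0.498 ± 0.0922 and 0.425 ± 0.0451, now with overlap.

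With ABALON subtracted by shared length the values lay in between. The share of BCL2L1 was 24.1% ± 0.930 in control and 37.4% ± 1.37 in shtRF, and the survival sum went from 50.5 ± 2.18 to 46.2 ± 1.51 RPKM without overlap. The ratio of survival to death was 3.89 ± 0.247 and 3.63 ± 0.0885, with overlap, and that of BAX to BCL2L1 0.222 ± 0.0470 and 0.161 ± 0.0179, without. On the log2 scale the ratio of survival to death differed by 0.04 over all exons, by -0.10 with subtraction by length and by -0.27 with the whole count subtracted. Whether the mRNAs of the 3 survival members together were level or lower in shtRF cannot be told from these counts. The share of BCL2L1 in them was higher under each of the 3 measures. BCL2L2, a further survival gene, is not in these sums. With it the sum over all exons was 64.0 ± 2.57 RPKM in control and 65.9 ± 2.40 in shtRF, with overlap.

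**Figure D4:**
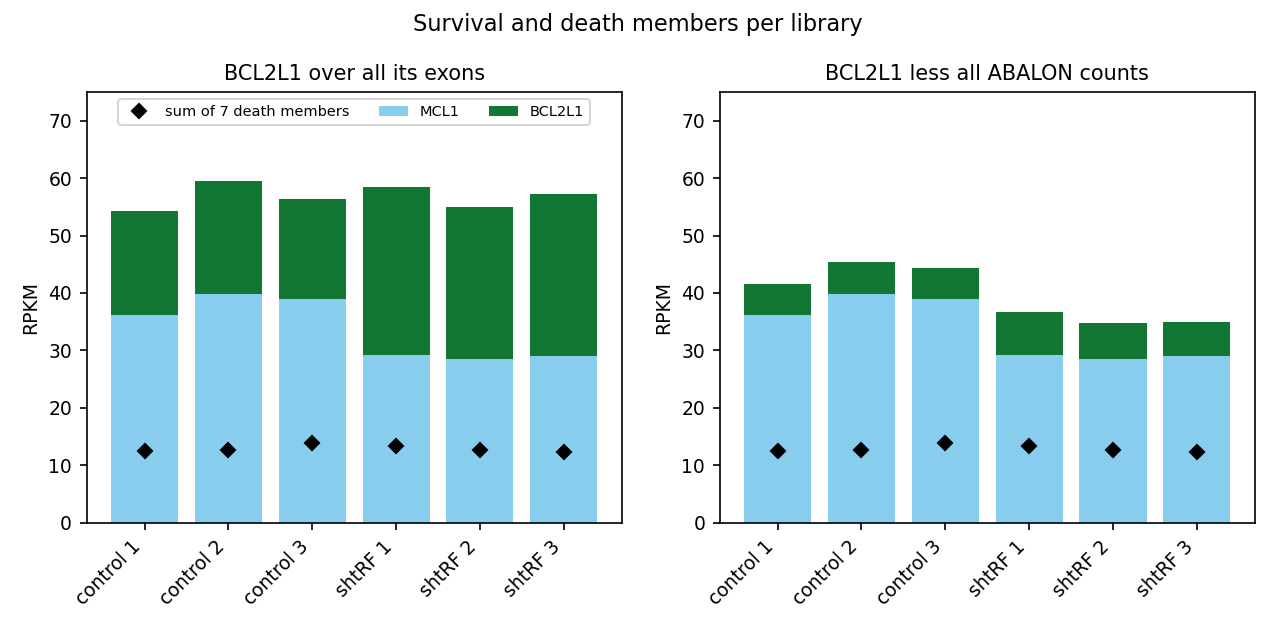
Stacked levels of MCL1 and BCL2L1 in RPKM (y axis, from 0) in each library (x axis), with the sum of the 7 death members as diamonds, for BCL2L1 over all exons (left) and less all ABALON counts over its unshared bases (right); BCL2 is too low to draw. On the left the bars reach similar heights, with survival sums of 56.8 ± 2.58 RPKM in control and 56.9 ± 1.84 in shtRF, and on the right all 3 shtRF bars are shorter.

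The estimates of several uncalled members depended on single libraries, whereas BCL2L11, PMAIP1 and BIK kept their sign with any 1 library left out. Control replicate 3 was the highest control library for 4 members and the lowest for 5, replicate 2 the highest for 5 and the lowest for 2, and replicate 1 the highest for 1 and the lowest for 3. Relative to the mean of control, replicate 3 had 1.33 times the level of BAK1, 1.20 of BAX, 1.19 of PMAIP1 and 1.16 of BID, and 0.775 of BBC3 and 0.567 of BCL2. It also had 0.739 of the level of ATF4, 0.548 of DDIT3, 0.535 of SESN2 and 0.662 of CEBPB, stress-response genes named here after their values were seen. Without replicate 3 the log2 fold change was 0.63 for BCL2L1 (edgeR adjusted p = 9.91e-09) and -0.34 for MCL1 (3.85e-05), and both calls held. The estimate became 0.26 for BAX (edgeR adjusted p = 0.0956), 0.19 for BAK1 (0.452) 0.07 for BID (0.650), -0.17 for BCL2 (0.809) and -0.25 for BBC3 (0.282), so that the signs of BAK1, BID and BCL2 turned while none was called. Without control replicate 2, BAX was at -0.01 (0.973), BBC3 at 0.05 (0.871) and BAK1 at -0.26 (0.304), again uncalled. The shtRF libraries turned signs too. BBC3 was at 0.02 without shtRF replicate 2 (edgeR adjusted p = 0.959). Without shtRF replicate 3, BAK1 was at 0.006 (0.988) and BCL2 at -0.08 (0.925).

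**Figure D5:**
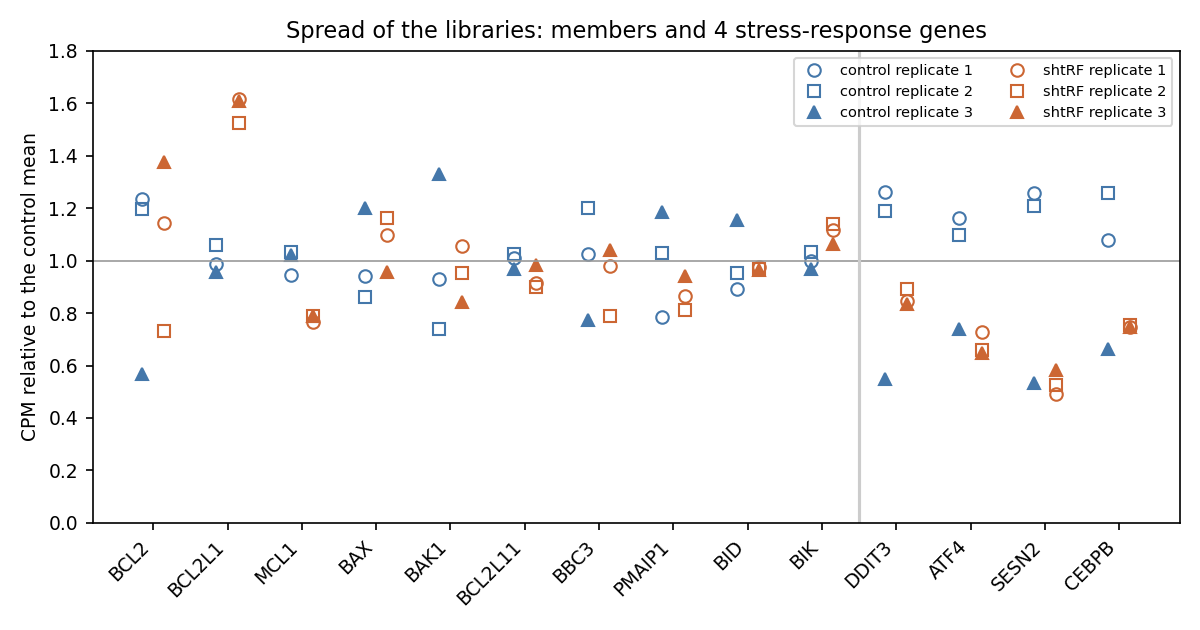
CPM of each member and of 4 stress-response genes (x axis) relative to the mean of control (y axis, no unit), one symbol per library, with replicate 3 filled. Control replicate 3 lies at 1.33 for BAK1 and 1.20 for BAX and at 0.548 for DDIT3, away from the other 2 control libraries.

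Beyond the 10 members, 15 further genes of the family or with similar domains were listed, 14 of them in the table and 10 with enough counts to test. Of these 4 rose and 5 fell, a share of 90% called against 39.5% of all genes tested, and their median log2 fold change was -0.27. BNIP3 and BNIP3L, mitochondrial receptors for the removal of mitochondria that hypoxia induces, both fell. BNIP3 had 54.8, 60.2 and 53.2 CPM in control and 30.9, 29.8 and 27.8 CPM in shtRF, a log2 difference of -0.93 ± 0.06 (SE, edgeR adjusted p = 1.05e-10). BNIP3L had 43.3, 46.1 and 43.8 CPM in control and 28.6, 32.2 and 31.7 CPM in shtRF, a log2 fold change of -0.53 ± 0.06 (edgeR adjusted p = 4.77e-07). In both genes every shtRF library lay below every control library.

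The remaining survival relative with enough counts, BCL2L2, encodes BCL-w and rose by 0.36 on the log2 scale (29.8 ± 0.9 to 38.3 ± 1.5 CPM, edgeR adjusted p = 4.65e-05). Of its 4189 exonic bases 24.3% are shared with other genes, 813 of them with the read-through gene BCL2L2-PABPN1. BAD, a BH3-only gene whose protein growth factor signalling holds inactive, rose by 0.26 (edgeR adjusted p = 1.31e-03), with 23.7% of its exonic bases shared with GPR137. BOK, a relative of the pore formers, fell by 0.36 (9.37 ± 0.31 to 7.29 ± 0.36 CPM, edgeR adjusted p = 3.48e-03). BMF, a BH3-only gene, had a log2 fold change of -0.21 (edgeR adjusted p = 0.279), which became -0.41 and passed without control replicate 3 (0.00993). BCL2L13 rose by 0.31 (edgeR adjusted p = 4.70e-05) and BCL2L12 by 0.58 (2.67e-07, with 33.1% of its exonic bases shared with IRF3), while BNIP1 fell by 0.41 (1.98e-03) and BNIP2 by 0.33 (2.59e-04). BCL2A1, HRK, BCL2L14 and BCL2L15 had at most 14 reads in any library and were not tested.

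Genes that act downstream and upstream of the family were counted in 5 lists, in which 50% to 72.7% of the tested genes were called, against 39.5% of all genes tested. These lists and that of other family genes were chosen with earlier results of these data known, and whether their shares exceed that of all genes was not tested. Downstream of the pore, of 13 tested genes on the caspase activation list 5 rose and 2 fell, with a median log2 fold change of 0.15. Of the 8 listed as promoting 4 rose and none fell, and of the 5 listed as inhibiting 1 rose and 2 fell. The promoting genes include AIFM1 and ENDOG, named here because their proteins act in cell death without caspases. AIFM1 rose by 0.17 (edgeR adjusted p = 0.0136) but did not pass in every alternative, and ENDOG was not called (0.348). CYCS, cytochrome c itself, rose by 0.43 (300 ± 18 to 405 ± 34 CPM, edgeR adjusted p = 8.57e-06). CASP6, an effector caspase, rose by 0.23 (edgeR adjusted p = 0.0311), but did not pass without control replicate 1 (0.0951) or 2 (0.176), without shtRF replicate 2 (0.0599) or 3 (0.145), or with upper quartile scaling (0.0736). BIRC5, the inhibitor of apoptosis protein survivin, which also acts in mitosis, fell by 0.38 (38.6 ± 3.2 to 29.6 ± 2.1 CPM, edgeR adjusted p = 1.43e-04). BIRC6, another inhibitor of apoptosis protein, fell by 0.19 (edgeR adjusted p = 6.16e-03), but did not pass without shtRF replicate 2 (0.0528). The number that rose depended on single libraries and on scaling: it was 2 without control replicate 1 or 2, 3 without control replicate 3, 1 without shtRF replicate 2 or 3, and 1 with upper quartile scaling.

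Of 11 tested genes on the death receptor route to BID, 4 rose and 4 fell, with a median of 0.14. The TRAIL receptors went apart: TNFRSF10A rose by 0.62 (10.9 ± 0.35 to 16.8 ± 1.2 CPM, edgeR adjusted p = 2.17e-06) and TNFRSF10B fell by 0.31 (0.0106), the latter not without shtRF replicate 3 (0.0644). RIPK1, a kinase of the receptor complex, rose by 0.43 (edgeR adjusted p = 7.65e-07) and CFLAR, which blocks caspase-8, fell by 0.35 (1.80e-05). Without shtRF replicate 3, only 2 genes of this list fell.

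Upstream, of 21 tested p53 targets outside the family 9 rose and 4 fell, with a median of 0.22. GDF15 rose by 1.46 (1.16 ± 0.16 to 3.22 ± 0.54 CPM, edgeR adjusted p = 1.33e-06), ZMAT3 by 1.01 (4.41e-08) and PERP by 0.94 (4.16e-11), while CCNG1 fell by 0.98 (4.21e-09). BBC3, PMAIP1 and BAX, the targets of p53 within the family, are among the members that did not pass the test. Of 18 tested transcription factors known to act on BH3-only genes 5 rose and 8 fell, with a median of -0.23. Beside MYC, given above, ATF4 of the integrated stress response fell by 0.56 (351 ± 80 to 238 ± 15 CPM, edgeR adjusted p = 1.63e-04), and RUNX1 rose by 0.61 (1.62e-07). Control replicate 3, at 259 CPM of ATF4, lay close to shtRF replicate 1 at 256, and ATF4 passed in each of its 14 alternatives. TP63 fell by 0.54 (edgeR adjusted p = 0.0201), but did not pass without control replicate 1 (0.102) or without shtRF replicate 1 (0.0929) or 2 (0.0796).

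Of 12 tested genes that act on the turnover or tethering of MCL1 and BIM proteins, 4 rose and 2 fell, with a median of 0.06. HUWE1, a ubiquitin ligase for MCL1, rose by 0.24 (626 ± 17 to 739 ± 23 CPM, edgeR adjusted p = 9.32e-04), and CUL5, a cullin scaffold, by 0.23 (1.97e-03). USP13, a deubiquitinase of MCL1, fell by 0.45 (47.9 ± 2.1 to 35.2 ± 1.8 CPM, edgeR adjusted p = 3.25e-06). USP27X, a deubiquitinase of BIM, fell by 0.34 (edgeR adjusted p = 0.0458) and passed in none of the fits without control replicate 1, 2 or 3 or without shtRF replicate 1 or 2 (0.0524 to 0.146). Without shtRF replicate 1, only 2 genes of this list rose. Protein levels were not measured.

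The label of the cells was checked against their markers. The 7 luminal markers examined (ERBB2, GATA3, FOXA1, KRT8, KRT18, EPCAM and SPDEF) each had at least 4871 reads in every library, and their summed level was 3307 to 3343 CPM in control and 4444 to 4835 CPM in shtRF, the difference being carried by KRT8 (1557 to 2691 CPM on average) and KRT18 (386 to 601), while ERBB2 and GATA3 fell (edgeR adjusted p = 0.0114 and 0.0397). ESR1 and PGR, low in this line, together had at most 0.532 CPM. Of the markers of other cells, endothelial genes summed to at most 0.349 CPM, basal genes to 2.78 to 3.55 CPM in control and 1.78 to 2.68 in shtRF, leukocyte genes, carried by CD68, to at most 5.28 CPM in control and 5.72 to 8.09 in shtRF, and fibroblast genes, carried by COL1A1, to 29.6 to 35.4 and 20.6 to 21.3 CPM. The part of these sums in the results was not tested.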

How the data were processed

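Messenger RNA of MDA-MB-453 cells was sequenced on a NovaSeq instrument in 6 libraries, 3 with a control hairpin and 3 with a hairpin against tRF-1-Ser, grouped by their titles. The authors deposited raw read counts for 36517 genes, with exon coordinates, strand and length on GRCh38. The submitters' processing notes name Trimmomatic 0.36, featureCounts, Subread 1.5.1 and edgeR 3.12.1; aligner, annotation and strand setting are not given in the sources used here. The authors also deposited RPKM values, of which 4997 complete genes, MCL1 the only member among them, were used here; for all 4991 with a matching symbol they equalled the count divided by exonic length and total counts (relative tolerance 1e-06), so RPKM was recomputed from the counts. Totals were 63541413 to 78917459 counts per library. Of counts of 1 to 4, 74.2% to 77.1% were even, against 49.7% to 50.7% of counts of 1000 or more, the pattern left when both mates of a pair are counted, so low counts hold fewer fragments than reads.

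Counts were tested with edgeR 4.0.16 in R 4.3.3 (filterByExpr with a minimum count of 10, TMM factors 0.961 to 1.03, quasi-likelihood test, group as the only term), with Benjamini-Hochberg adjustment over the 19628 genes tested. Replicates varied by 7.56% (common dispersion 0.00572). Intervals are 95%, and errors of levels are SD over 3 libraries. Every member was named. Named too were the tested genes of the list of other family genes, the genes whose exons overlap a member and, in each other list, at most 4 called genes with the largest absolute log2 fold change at a mean of at least 2 CPM. BAK1 shares 91 exonic bases with GGNBP1 and BBC3 shares 80 with MIR3190. Members and lists were chosen with earlier results of these data known. After the tests had been run, 3 genes were taken out for reasons unrelated to their values, 2 from the caspase activation list and 1 from the luminal markers, and are not reported here. The test was checked on simulated counts. Alternatives were RLE and upper quartile scaling, other count filters, DESeq2 1.42.0, the edgeR exact test, a replicate block, each library left out, other ways of forming the ratios, and, chosen after seeing the data, counts halved and BCL2L1 less the counts of ABALON, whole or by shared length. Promoter windows came from RefSeq.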

Additional observations from a re-analysis of the deposited data

How the results depend on the processing

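No member changed its call in any of its 14 alternatives or, for BCL2L1, after either subtraction of ABALON. Over the 14 the adjusted p ran from 7.14e-27 to 2.90e-07 for BCL2L1, from 4.13e-10 to 2.65e-04 for MCL1 and from 0.0956 to 0.973 for BAX. Over fits leaving out 1 library, the log2 fold change ran from 0.63 to 0.70 for BCL2L1, from -0.40 to -0.34 for MCL1, from -0.17 to 0.34 for BCL2, from -0.01 to 0.26 for BAX, from -0.26 to 0.19 for BAK1, from -0.14 to -0.08 for BCL2L11, from -0.25 to 0.05 for BBC3, from -0.35 to -0.06 for PMAIP1, from -0.13 to 0.07 for BID and from 0.12 to 0.18 for BIK.

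The log2 difference of the ratio of survival to death, 0.04 with sums over all exons, was 0.18 with mean log2 RPKM in place of sums, 0.64 without MCL1, -0.10 with ABALON subtracted from BCL2L1 by shared length and -0.27 with its whole count subtracted, the last 2 chosen after seeing the data. Leaving out 1 library gave -0.01 to 0.09, and for the ratio of BAX to BCL2 -0.36 to 0.46. Of the list counts, the rising genes on the caspase activation list numbered 1 with upper quartile scaling and 1 to 4 with 1 library left out. The falling genes of protein turnover numbered 1 without a filter beyond 1 count and 1 to 2 with 1 library left out, and the rising ones 2 to 4. On the death receptor route 2 to 4 fell with 1 library left out. Over all genes 3375 to 3950 were then higher and 3053 to 3601 lower.

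Deviations from the group means of libraries with the same replicate number correlated at 0.0592, 0.0178 and 0.0174, so the numbers were not taken to pair the libraries. With the replicate number as a block 4123 genes were higher and 3776 lower, and among the members 1 was higher and 1 lower, as without it. The depth limited BCL2, at 18 to 36 reads per library, and PMAIP1, at 42 to 78.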
